A study of Rattus norvegicus with 9 samples.

Results

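The toll-like receptors and the proteins that work with them were followed through postnatal days 2, 7 and 21 in rat lung fibroblasts. The group holds 10 genes listed by symbol, with results of these data already known, of which 9 were measured among 14217 genes on the array: the receptors Tlr2, Tlr3, Tlr4 and Tlr7, the accessory proteins Cd14, Ly96, Ly86, Lbp and Tril, and the adaptor Myd88. A gene with several probe sets was to be represented by the one chosen by its mean log2 level over the 9 arrays, but each of the 9 measured genes had a single probe set, so that level decided nothing. Tlr3 had no probe set under its symbol in the annotation used and was not analysed here. Tril was in the list after its rise at day 7 had been seen, so its course is given as a description, with no p-value.

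Fibroblasts were isolated from rat pups and frozen after a short plating, with no further culture. The 3 groups were pups with no strain, genotype or treatment stated, on postnatal day 2 (saccular lung, before septation), day 7 (septation in progress) and day 21 (septation ended). Every day had 3 samples, from litters 1 to 3, each a pool of 5 pups at day 2 and of 4 pups later, and each sample was hybridised to an Affymetrix array. Cells were kept because they stuck to plastic within a short time, which macrophages are also known to do.

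Toll-like receptors sense microbial and tissue-derived molecules. In mammals Tlr2 recognises lipoproteins, Tlr4 recognises lipopolysaccharide and Tlr7 recognises single-stranded RNA inside endosomes. Lbp hands lipopolysaccharide to Cd14, which passes it to Tlr4 with its partner Ly96 (MD-2). Ly86 (MD-1) is the partner of the related receptor Cd180, Tril is a leucine-rich repeat membrane protein found with Tlr4 and Tlr3 in human and mouse cells, and Myd88 carries the signal of the receptors other than Tlr3. Macrophages are the classical site of this machinery, and stromal cells express some of it.

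Of the 10 genes, 7 had a promoter in the RefSeq table of the GRCr8 assembly, which holds 250 bases before and 50 after a start site. The promoters of Tlr2 (chr2:171504508-171504807, minus strand), Tlr7 (chrX:30644176-30644475, plus strand), Tlr4 (chr5:85160997-85161296, plus strand) and Tril (chr4:84257577-84257876, minus strand) are shown because these 4 genes followed 3 different courses over the days. Each runs 5′ to 3′ on the gene's strand, with capitals marking matches, on both strands, to the NF-kB consensus or to GAGGAA, the core bound by the myeloid factor PU.1.
Tlr2: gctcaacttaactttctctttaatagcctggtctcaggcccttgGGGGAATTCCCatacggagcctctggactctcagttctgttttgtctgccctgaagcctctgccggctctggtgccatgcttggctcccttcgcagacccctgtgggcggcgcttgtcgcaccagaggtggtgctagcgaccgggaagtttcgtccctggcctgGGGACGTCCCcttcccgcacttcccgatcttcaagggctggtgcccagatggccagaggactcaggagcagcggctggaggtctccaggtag
Tlr7: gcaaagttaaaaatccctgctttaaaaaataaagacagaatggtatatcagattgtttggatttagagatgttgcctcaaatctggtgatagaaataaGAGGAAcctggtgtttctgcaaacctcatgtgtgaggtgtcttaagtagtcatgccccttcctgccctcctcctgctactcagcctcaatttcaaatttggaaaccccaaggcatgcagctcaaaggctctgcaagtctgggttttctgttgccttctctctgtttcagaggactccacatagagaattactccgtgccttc
Tlr4: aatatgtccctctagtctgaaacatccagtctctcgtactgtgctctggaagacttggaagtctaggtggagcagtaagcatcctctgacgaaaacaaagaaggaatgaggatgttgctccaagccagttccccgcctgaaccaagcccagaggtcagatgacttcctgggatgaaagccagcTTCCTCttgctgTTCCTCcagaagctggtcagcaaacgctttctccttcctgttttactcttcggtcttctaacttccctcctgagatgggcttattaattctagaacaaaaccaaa
Tril: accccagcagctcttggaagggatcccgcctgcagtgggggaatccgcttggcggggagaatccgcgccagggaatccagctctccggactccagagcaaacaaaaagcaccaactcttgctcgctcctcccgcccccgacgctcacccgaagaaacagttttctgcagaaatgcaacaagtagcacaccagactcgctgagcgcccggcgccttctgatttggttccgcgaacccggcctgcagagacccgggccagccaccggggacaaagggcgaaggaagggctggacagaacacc

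Tlr2 held 3 NF-kB matches, of which 2 overlap and begin 206 and 205 bases upstream of the start site and the other begins 42 bases upstream. Of all 33469 promoters of that length, 7.5% held at least 1 such match. GAGGAA occurred at 1 place in Tlr7 and at 2 places in Tlr4, and 27.6% of all promoters held it. Tril had no match to either. The letters TGANTCA (AP-1), found in 7.3% of promoters, and TATAAA, found in 14.2%, were absent from the 4 windows shown. A match is a run of letters and not a measured binding site.

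The cells carried the signature of their label, with other cell types beside it. The 12 fibroblast markers averaged log2 10.5 to 10.8 per array on day 2, 10.8 on each day 7 array and 9.77 to 10.2 on day 21. Of 25 macrophage markers written, 22 were measured, with only Cd163 below log2 4.25, a percentile of all values (the 25th) used here as the low end. Their summed log2 level per array was 201.1 to 205.8 on day 2, 164.7 to 183.4 on day 7 and 211.5 to 222.5 on day 21. Of the 22, 15 fell at day 7 against day 2, and 21 rose at day 21 against day 7. Among all genes, 4.41% fell in the first of these comparisons and 13.7% rose in the second. Of 9 lymphocyte markers, 7 lay below the low end (Cd79b, Ms4a1, Cd3e, Cd3d, Cd8a, Cd5 and Klrd1). The 7 mast cell markers averaged log2 4.39 to 4.79 per array on day 2, 4.27 to 4.68 on day 7 and 6.07 to 7.51 on day 21. The 6 neutrophil markers averaged 6.37 to 7.19 on day 2, 4.68 to 5.45 on day 7 and 5.48 to 6.53 on day 21. Day 7 replicate 3 stood apart, with a macrophage mean of log2 7.49, against 8.18 and 8.34 on the other day 7 arrays. Its median over all probe sets was lower as well, at log2 5.28 against 5.66 and 5.55. In bulk RNA, fewer macrophages and less RNA per macrophage cannot be told apart.

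Day 7 was the low point for most of these genes and the high point for Tril. Between days 2 and 7, Cd14, Tlr7 and Tlr2 fell, and Tlr4, Ly96, Ly86, Lbp and Myd88 did not pass. From day 7 to day 21, Tlr2, Tlr7, Cd14, Ly96, Ly86, Lbp and Myd88 rose and Tlr4 fell. Tril, listed for its course, was highest at day 7 and lowest at day 21. Changes were tested with limma across 31042 probe sets, and a gene is said to rise or fall where the adjusted p is under 0.05.

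**Figure D1:**
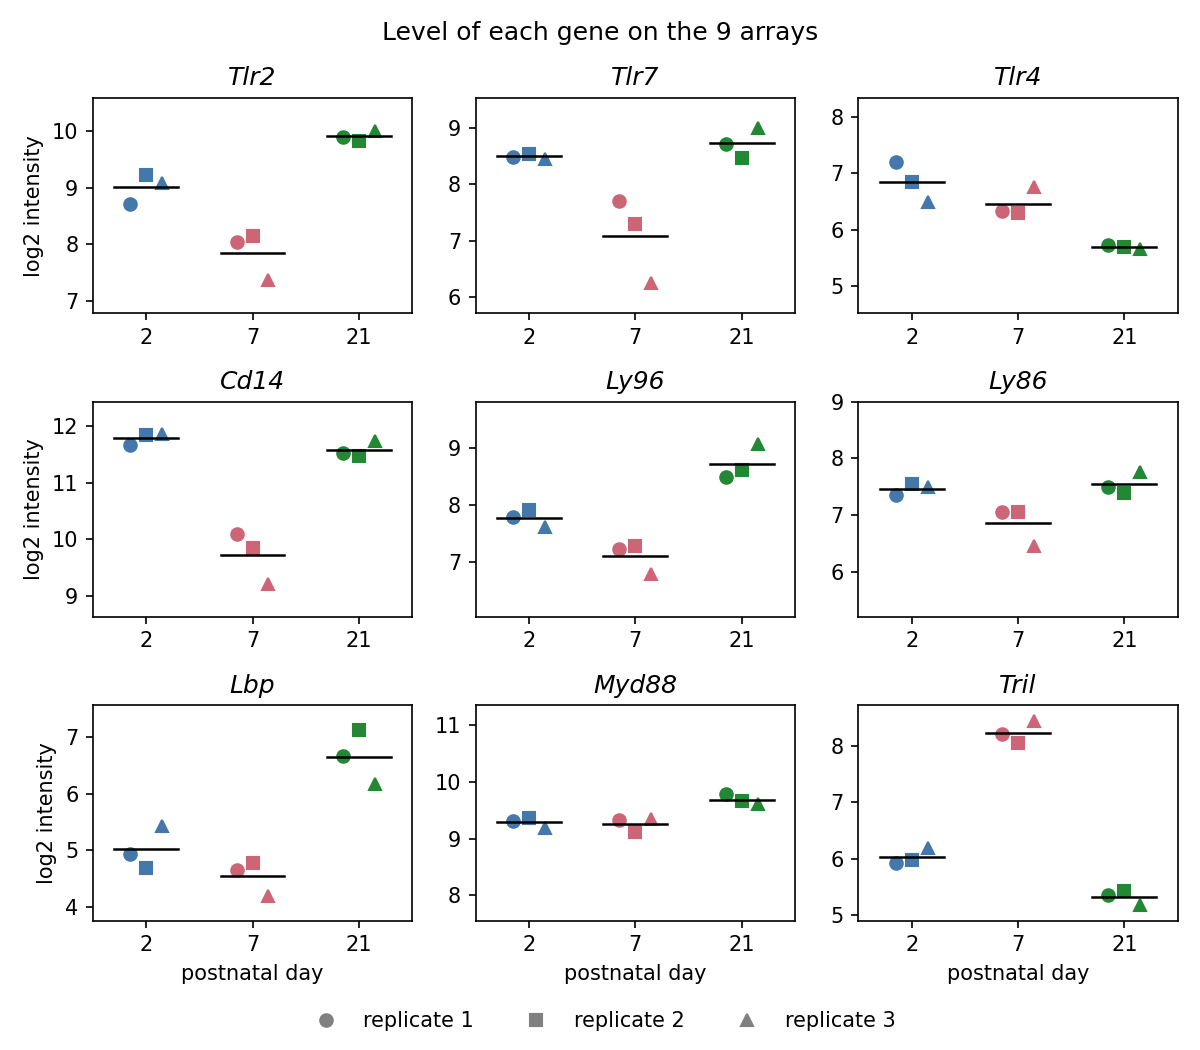
Log2 probe set intensity (y axes, all of equal span) by postnatal day (x axes) for the 9 measured genes. Points are arrays, with symbols for replicates 1 to 3, and bars are the means of 3 arrays. Tril alone among them peaked at day 7, between 8.05 and 8.43, and Tlr4 was lowest at day 21, between 5.67 and 5.73.

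Among the receptors, Tlr2 was at log2 8.71, 9.23 and 9.08 on the day 2 arrays, at 8.03, 8.15 and 7.37 on day 7 and at 9.90, 9.82 and 9.99 on day 21. The days did not overlap, day 7 lying lowest and day 21 highest. Tlr2 was 2.23-fold lower at day 7 than at day 2 (limma adjusted p = 0.00687, log2 change -1.16 ± 0.21, SE, with 3 arrays a day) and 4.15-fold higher at day 21 than at day 7 (2.05 ± 0.21, adjusted p = 2.23e-05). It ended above its starting level, at 9.90 ± 0.09 on day 21 against 9.01 ± 0.27 on day 2 (SD, n = 3 each, log2 change 0.90 ± 0.21 SE, adjusted p = 0.0125), a call that was lost without day 2 replicate 1 (adjusted p = 0.0513).

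Tlr7 was at log2 8.49, 8.54 and 8.45 on day 2, at 7.70, 7.30 and 6.26 on day 7 and at 8.71, 8.46 and 8.99 on day 21. Every day 7 array lay below every other array, while days 2 and 21 overlapped. It was 2.65-fold lower at day 7 than at day 2 (log2 change -1.41 ± 0.30, adjusted p = 0.013) and 3.11-fold higher at day 21 than at day 7 (1.64 ± 0.30, adjusted p = 0.00118). Much of its spread came from day 7 replicate 3, and without it the change to day 7 was -0.99 (adjusted p = 0.0161). Between day 21 and day 2 its difference of 0.23 did not pass (95% confidence interval -0.42 to 0.88).

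Tlr4 did not share this course. It was at log2 7.19, 6.84 and 6.49 on day 2, at 6.34, 6.29 and 6.76 on day 7 and at 5.73, 5.69 and 5.67 on day 21. The day 7 and day 2 arrays overlapped, and every day 21 array lay below all the others. The change from day 2 to day 7, -0.38 ± 0.20, did not pass (adjusted p = 0.298). On day 21 Tlr4 was 1.7-fold lower than at day 7 (log2 change -0.77 ± 0.20, adjusted p = 0.0102) and 2.21-fold lower than at day 2 (-1.15 ± 0.20, adjusted p = 0.00196), in the interval over which Tlr2 and Tlr7 rose.

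**Figure D2:**
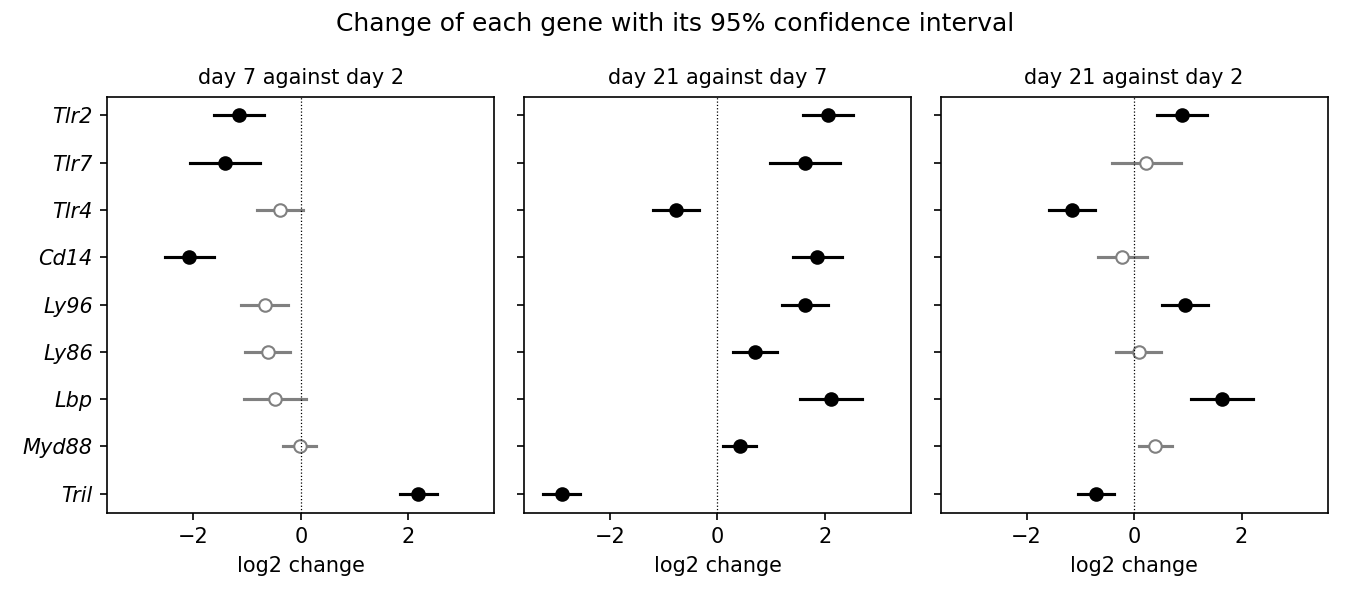
Log2 change (x axes) of the 9 genes (rows) in 3 comparisons, with limma's 95% confidence intervals as bars. Filled points passed at an adjusted p under 0.05. The fit also marks Tril, whose course is a description. At day 21 against day 7 all points are filled, with Tlr4 at -0.77 and Tril at -2.90 left of zero.

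Of the accessory proteins, Cd14 showed the largest fall to day 7 in the group. Its levels were log2 11.67, 11.84 and 11.86 on day 2, 10.10, 9.84 and 9.20 on day 7 and 11.52, 11.48 and 11.73 on day 21. The day 7 arrays stood well below both other days. Cd14 was 4.22-fold lower at day 7 than at day 2 (log2 change -2.08 ± 0.21, adjusted p = 0.000516) and 3.63-fold higher at day 21 than at day 7 (1.86 ± 0.21, adjusted p = 4.07e-05). Days 21 and 2 overlapped, with a difference of -0.22 that did not pass (95% confidence interval -0.68 to 0.24).

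Ly96 was at log2 7.79, 7.92 and 7.60 on day 2, at 7.23, 7.28 and 6.78 on day 7 and at 8.50, 8.61 and 9.07 on day 21. The 3 days did not overlap. The change from day 2 to day 7, -0.68 ± 0.20, missed the threshold (adjusted p = 0.054), though it passed in 4 of the alternative fits, with adjusted p-values of 0.031 to 0.0482. At day 21 Ly96 was 3.1-fold higher than at day 7 (log2 change 1.63 ± 0.20, adjusted p = 6.18e-05) and 1.94-fold higher than at day 2 (0.96 ± 0.20, adjusted p = 0.00565). Tlr4 and Ly96, which together form the lipopolysaccharide receptor, thus moved in opposite directions between days 7 and 21.

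Ly86 was at log2 7.35, 7.55 and 7.50 on day 2, at 7.06, 7.05 and 6.44 on day 7 and at 7.50, 7.39 and 7.76 on day 21. Its changes were small and in the same order, -0.61 ± 0.19 to day 7 (adjusted p = 0.0707) and 0.70 ± 0.19 to day 21 (adjusted p = 0.0149). The rise to day 21 was 0.49 without day 7 replicate 3 (adjusted p = 0.0524) and 0.59 without day 21 replicate 3 (adjusted p = 0.0603), so it rested on those arrays. Its net difference of 0.08 between day 21 and day 2 did not pass (95% confidence interval -0.33 to 0.50).

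Lbp, best known as a plasma protein made by the liver, was dim until day 21. It was at log2 4.94, 4.69 and 5.44 on day 2, at 4.66, 4.78 and 4.20 on day 7 and at 6.67, 7.12 and 6.18 on day 21. Days 2 and 7 overlapped, day 7 replicate 3 lay below the low end, and every day 21 array was above all the others. Lbp was 4.32-fold higher at day 21 than at day 7 (log2 change 2.11 ± 0.26, adjusted p = 8.34e-05) and 3.1-fold higher than at day 2 (1.63 ± 0.26, adjusted p = 0.00138). The earlier levels lay close to the low end, where intensities are dim.

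Tril ran against most of the others, though Tlr4 too was lower at day 21 than on both earlier days. Its levels were log2 5.94, 5.98 and 6.19 on day 2, 8.20, 8.05 and 8.43 on day 7 and 5.35, 5.44 and 5.19 on day 21. The days did not overlap, with day 7 highest and day 21 lowest. Tril was 4.56-fold higher at day 7 than at day 2 (log2 change 2.19 ± 0.16) and 7.45-fold lower at day 21 than at day 7 (-2.90 ± 0.16). It ended 1.64-fold below its day 2 level (-0.71 ± 0.16).

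Myd88 was the steadiest of the 9. It was at log2 9.31, 9.36 and 9.19 on day 2, at 9.33, 9.12 and 9.34 on day 7 and at 9.78, 9.66 and 9.61 on day 21. Days 2 and 7 overlapped, and the difference of -0.02 between them did not pass (95% confidence interval -0.33 to 0.29). The day 21 arrays lay above all the others, by a log2 change of 0.42 ± 0.14 from day 7 that barely passed (adjusted p = 0.044). That call was lost with the litter number as a replicate block (adjusted p = 0.0661) and on leaving out any single array except day 2 replicate 3 (adjusted p = 0.0473 without it), with values of up to 0.161. The gain of 0.40 over day 2 did not pass (adjusted p = 0.0726).

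In the fit, 1 gene (Tril) was higher and 3 fell between days 2 and 7 (median log2 change -0.61), against 7.02% of all 14217 genes that rose and 4.41% that fell, 11.4% in all (median 0.07). Between days 7 and 21, 7 rose and 2 were lower (Tlr4 and Tril; median 1.63), where 13.7% of all genes rose and 24.4% fell, 38.1% in all (median -0.01). Between days 2 and 21, 3 rose (Tlr2, Ly96 and Lbp) and 2 were lower (Tlr4 and Tril), where 8.8% of all genes rose and 15.3% fell, 24.1% in all. With day 7 set against the mean of days 2 and 21 in a single contrast, Tlr2, Tlr7, Cd14, Ly96, Ly86 and Lbp were lower and Tril was higher, where 9.93% of all genes were lower and 20.6% higher, 30.5% in all. That contrast was -1.97 ± 0.18 for Cd14, -1.60 ± 0.18 for Tlr2, -1.52 ± 0.26 for Tlr7 and 2.54 ± 0.14 for Tril. For Tlr4 (0.19 ± 0.17) and Myd88 (-0.22 ± 0.12) it did not pass. Ly86 fell out of this count without day 7 replicate 3 (adjusted p = 0.0607), and without that array 5 in place of 7 genes rose between days 7 and 21. Since the genes were listed with results known, these counts describe the list and do not test it, and those of Tril support nothing.

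The macrophage markers moved with most of these genes, and so did some markers of other cells. Their mean log2 change was -1.28 between days 2 and 7 (single markers -3.01 to -0.43) and 1.84 between days 7 and 21 (0.38 to 2.79). With the marker mean of the same array subtracted, Tlr2 shifted by 0.12 between days 2 and 7 and by 0.21 between days 7 and 21, and Tlr7 by -0.13 and -0.21. Cd14 shifted by -0.80 and then by 0.02, and Ly96 by 0.61 and -0.21. Lbp shifted by 0.80 and 0.27, Ly86 by 0.67 and -1.14, Myd88 by 1.26 and -1.42, Tlr4 by 0.90 and -2.61 and Tril by 3.47 and -4.74. Median changes in the same intervals were -1.55 and 1.00 for the 6 neutrophil markers and -0.10 and 2.16 for the 7 mast cell markers. The 12 epithelial markers had median changes of -0.04 and 0.50 in these intervals and averaged log2 6.84 to 7.17 per array on day 2, 6.28 to 6.86 on day 7 and 6.94 to 7.54 on day 21. The 5 mesothelial markers had medians of -0.93 and 1.18 and averaged 6.30 to 6.91, 5.11 to 6.26 and 5.96 to 7.32 on the 3 days. The 4 dendritic cell markers had medians of 0.08 and 0.28 and averaged 6.05 to 6.16, 5.50 to 6.18 and 6.23 to 6.69. Within these lists the club cell gene Scgb1a1 (-2.36 and 3.16), the mesothelial gene Msln (-1.79 and 2.53) and Itgax, also a macrophage gene (-1.75 and 2.59), fell and then rose, while the dendritic cell gene Itgae did the opposite (0.76 and -0.85), all named after their values had been seen. Of the 12 epithelial markers, 5 rose and 2 fell between days 7 and 21. The macrophage-subtracted shifts are differences of means with no test of their own, and the part of macrophages or of these other cells in each gene's change was not tested.

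**Figure D3:**
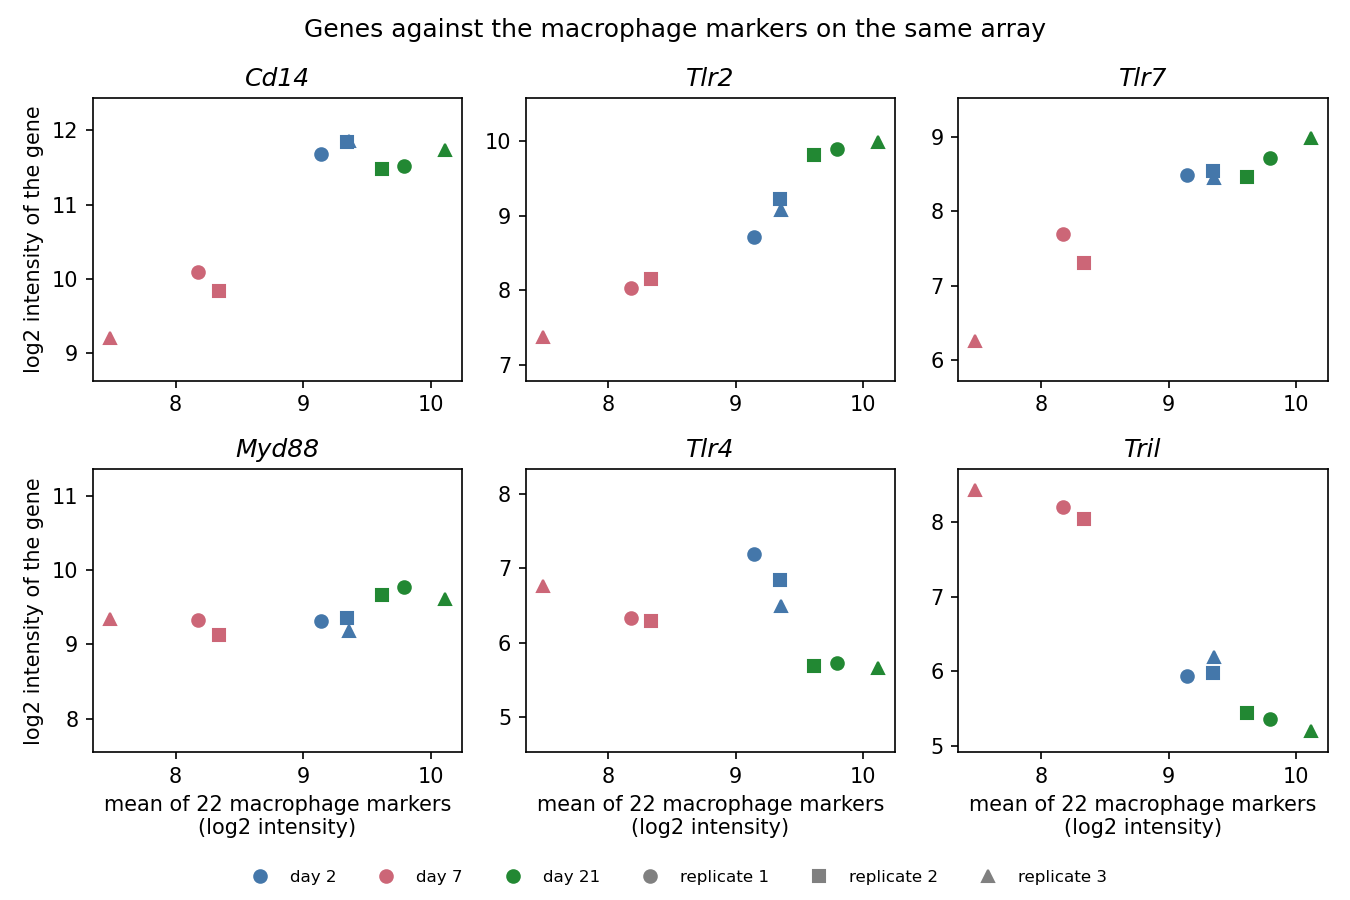
Log2 intensity of 6 genes (y axes, equal span) against the mean log2 intensity of 22 macrophage markers on the same array (x axes). Colours are days and symbols are replicates 1 to 3. Cd14, Tlr2 and Tlr7 were lowest on day 7 replicate 3, where the marker mean was 7.49, and Tril was highest there, at 8.43.

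A single array showed a like contrast within day 7. Replicate 3 had the lowest macrophage mean and, of the day 7 arrays, the lowest median over all probe sets. Its means of the neutrophil (4.68), dendritic cell (5.50), lymphocyte (3.83) and epithelial (6.28) markers were also the lowest of all 9 arrays. Those of the mast cell and mesothelial markers were lower on day 7 replicate 1. On replicate 3 Cd14, Tlr2, Tlr7, Ly96, Ly86 and Lbp were at their lowest level of all 9 arrays. On the same array Tril was at its highest level of all 9, and Tlr4, at 6.76, was the highest of day 7. The other 2 day 7 arrays were mixed. Replicate 1 had the lower macrophage mean (8.18, against 8.34 in replicate 2). Tlr2, Ly96 and Lbp were lower there and Tril and Tlr4 higher, as on replicate 3. Cd14, Tlr7 and, at 7.06 against 7.05, Ly86 were higher on replicate 1 instead. Without day 7 replicate 3 the log2 change of Tlr4 between days 7 and 21 was -0.62 and kept its call (adjusted p = 0.0415). The changes of Tril were then 2.09 to day 7 and -2.80 to day 21. On average, markers of vessel cells were, like Tril, highest on day 7 and lowest on day 21. The 9 endothelial markers averaged log2 6.21 to 6.65 on day 2, 6.86 to 7.07 on day 7 and 5.65 to 6.15 on day 21. The 9 pericyte and smooth muscle markers averaged 7.38 to 7.83 on day 2, 7.72 to 7.86 on day 7 and 7.37 to 7.74 on day 21. Those ranges overlapped between the days. The 12 fibroblast markers overlapped between days 2 and 7 (median log2 change 0.16) and averaged lowest on day 21. Between days 7 and 21, 6 of the fibroblast markers fell and 1 rose (median -0.58). The part of vessel and stromal cells in the course of Tril was not tested.

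The genes closest to Tril were found as those with the smallest root mean square difference between log2 profiles over the 9 arrays, each centred on its own mean. The 5 nearest were Dnah7, an axonemal dynein (difference 0.28), Tyro3, a receptor tyrosine kinase (0.34), Col6a6, a collagen VI chain (0.37), Tmem178a, a membrane protein (0.41), and Igdcc4, an immunoglobulin superfamily protein (0.41). Dnah7 was below the low end on every day 2 array (3.85, 4.19 and 3.47) and every day 21 array (3.16, 3.03 and 2.74), so its likeness to Tril rests on dim values. Tyro3 was below the low end on day 21, at log2 3.54, 4.08 and 3.81, against 6.32, 6.30 and 6.22 on day 7. On the day 7 arrays Col6a6 was at 7.82, 7.32 and 8.19 and Igdcc4 at 8.31, 8.04 and 8.91. Both were highest on day 7 replicate 3, as were Tril, Dnah7 and Tmem178a, while Tyro3 was at its lowest of day 7 there. The 5 genes were picked for likeness over all 9 arrays, that array included, so a shared highest array is partly built in.

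The rest of the pathway was described through 7 lists of receptors, partners, adaptors and kinases, transcription factors, inhibitors, induced targets and endogenous ligands, with 98 genes written and 84 measured. Between days 2 and 7, 21 of them fell and 1 rose (median log2 change -0.26). Between days 7 and 21, 44 rose and 9 fell (median 0.64), and between days 2 and 21, 27 rose and 9 fell (median 0.35). Leaving out single arrays gave 14 to 22 falls in the first comparison (14 without day 2 replicate 2), 39 to 46 rises in the second (39 without day 21 replicate 3) and 18 to 31 rises in the third (18 without day 2 replicate 1). Of all genes, 7.02% rose and 4.41% fell in the first comparison, 13.7% and 24.4% in the second and 8.8% and 15.3% in the third. These shares also stand beside the counts of each list below. The macrophage markers moved the same way in these intervals.

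Of 9 other toll-like receptors written only Tlr1 and Tlr8 were measured. Tlr8, an endosomal RNA sensor like Tlr7, fell between days 2 and 7 (log2 change -1.85 ± 0.25, adjusted p = 0.00183) and rose by 1.96 ± 0.25 between days 7 and 21 (adjusted p = 0.000105). Tlr1, which pairs with Tlr2, was at log2 6.21 on day 21, against 4.05 on day 7, and rose by 2.16 ± 0.22 from a day 7 level below the low end.

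Of 9 receptor partners and chaperones, 2 fell between days 2 and 7, Cd36, a scavenger receptor that assists Tlr2 (-1.13), and Slc15a4, an endolysosomal transporter needed for Tlr7 signalling in mice (-0.90). Without any day 2 array, or without day 7 replicate 2 or 3, only 1 of them passed. At day 21 against day 7, 4 rose and 2 fell, and without day 21 replicate 3 the list had 3 calls. Slc15a4 rose by 1.80, Cd180, the receptor served by Ly86, by 1.06, the chaperone Cnpy3 by 0.89 and Unc93b1, which carries endosomal receptors out of the endoplasmic reticulum, by 0.72. Tmed7, a trafficking protein of Tlr4, fell by 0.94 on the log2 scale. The other fall was that of Cnpy4 (-0.55), which like Unc93b1 was named after the values had been seen.

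Of 20 adaptors and kinases, 3 fell between days 2 and 7 and 17 did not pass. They were Pik3ap1, an adaptor to phosphoinositide 3-kinase (-1.80 ± 0.26), the kinase Btk (-1.13) and Irak2, a kinase of the Myd88 complex (-0.68). Later, between days 7 and 21, 5 rose and 2 fell, with a median of 0.07. In both directions together the list was called about as often as all genes, of which 13.7% rose and 24.4% fell, 38.1% in all. Pik3ap1 (2.00), Btk (1.61, from a day 7 level just under the low end), Ikbkb, which releases NF-kB (1.39), and Irak2 (1.15) rose most. The 2 falls, Irak1 (-0.70 ± 0.18, adjusted p = 0.0101) and Tab3 (-0.54), were named after the values had been seen, and Irak1 is another kinase of the Myd88 complex.

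Of 9 transcription factors, 2 fell between days 2 and 7, Irf7 (-1.03) and Irf5 (-0.67), both of which act below Myd88. The count was 1 without day 2 replicate 2 or 3, day 7 replicate 1 or day 21 replicate 1 or 2 and with only the compared days fitted, and 4 after quantile normalization and with robust eBayes. Then 5 rose between days 7 and 21, led by Irf7 (2.52 ± 0.17, adjusted p = 1.31e-06), the NF-kB subunit gene Nfkb2 (1.68), Irf5 (1.56) and Irf8 (1.49). Of 16 inhibitors of the pathway, 4 fell between days 2 and 7, Il1rl1 (-2.27 ± 0.23), Inpp5d (-1.04), Irak3 (-0.96) and Tnip2 (-0.71), and 13 rose between days 7 and 21 (median 0.90). Il1rl1, the interleukin 33 receptor, rose by 2.64, Socs3, a feedback inhibitor of cytokine signalling, by 2.37, the phosphatase gene Inpp5d by 2.05 and Irak3, which restrains the Myd88 complex, by 1.99.

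Of 19 induced targets, 7 fell between days 2 and 7, among them Ptgs2, the inducible cyclooxygenase (-1.76 ± 0.30), Il1a (-1.38), the chemokine Ccl4 (-1.36) and Il6 (-1.33). That count was 4 without day 2 replicate 2 and without day 2 replicate 3. Of the 19, 13 rose between days 7 and 21 (median 1.30), and Il6 averaged log2 10.63 on day 21, against 7.02 on day 7. Between days 2 and 21, 7 were higher, led by Ccl5 (2.45, from a day 2 level below the low end), Il6 (2.28), Il10 (2.20) and Cxcl10 (1.70).

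**Figure D4:**
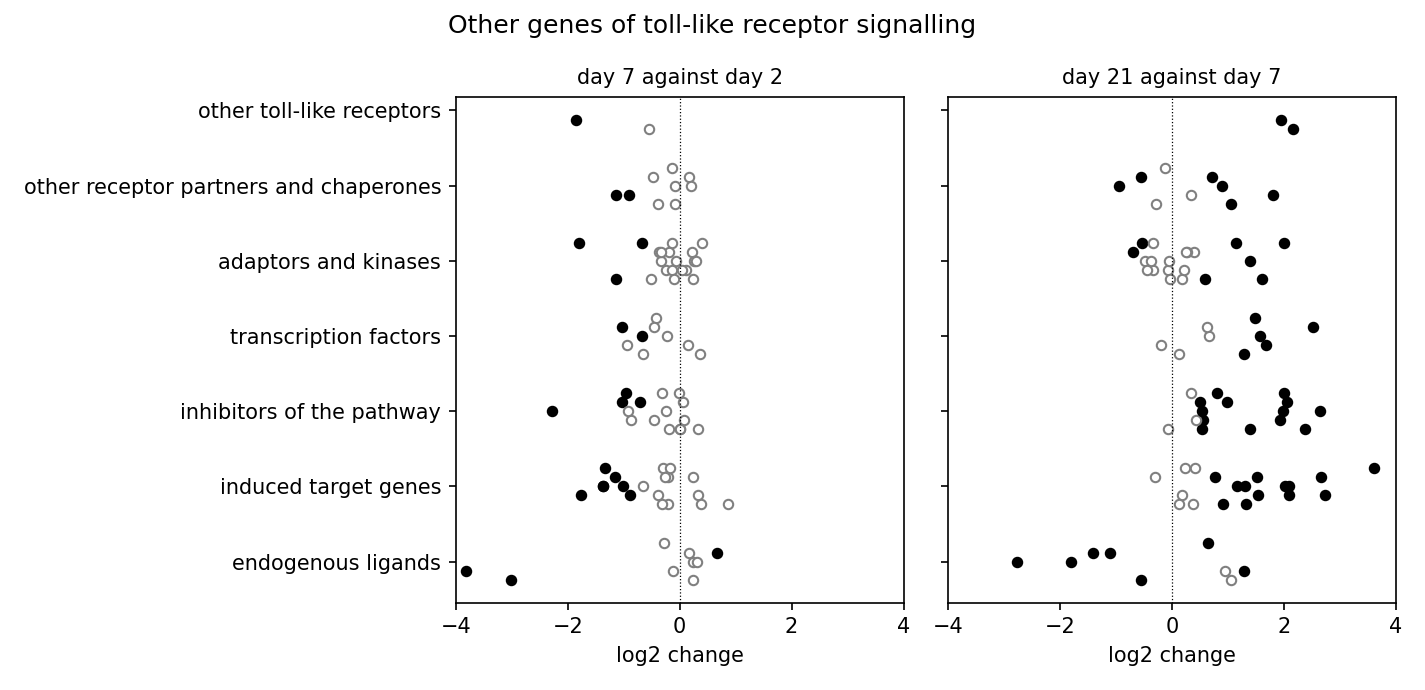
Log2 change (x axes) of 84 further genes of toll-like receptor signalling in 7 lists (rows), for day 7 against day 2 and day 21 against day 7. Each point is a gene, filled where the adjusted p is under 0.05. In the right panel 13 inhibitors and 13 induced targets lie filled right of zero, while 5 endogenous ligands lie filled left of it.

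The endogenous ligands, tissue molecules reported to activate Tlr2 or Tlr4, moved in both directions. S100a9 and S100a8, proteins of neutrophils and macrophages, fell between days 2 and 7, with log2 changes of -3.82 ± 0.61 for S100a9 and -3.01 ± 0.51 for S100a8. The nuclear protein gene Hmgb1 rose by 0.67 ± 0.18 (adjusted p = 0.0387), the single rise among the 84 genes in that interval. Its limma call was lost without day 2 replicate 2 or 3, day 7 replicate 1 or 2, or day 21 replicate 2, and with only the compared days fitted. From day 7 to day 21, 5 of 9 fell and 2 rose. The matrix protein genes Tnc (-2.77 ± 0.19, adjusted p = 1.36e-06) and Fn1 (-1.81), Hmgb1 (-1.41) and the proteoglycan gene Vcan (-1.12) fell most, while Dcn, another proteoglycan gene, rose (1.29 ± 0.27). The proteoglycan gene Bgn (-0.56) fell and the chaperonin gene Hspd1 (0.65) rose, and these genes and Vcan were named after the values had been seen. Tnc averaged log2 12.09 on day 2, 12.41 on day 7 and 9.64 on day 21.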

How the data were processed

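Single-colour Affymetrix arrays of 9 samples were analysed, 3 for each of days 2, 7 and 21. Each deposited value is a probe set intensity. The submitters' processing notes name RMA and affy, with versions and filters not given in the sources used here. RMA is meant to equalise arrays and compresses the changes of dim probe sets. The medians of the deposited arrays still differed, from log2 5.24 (day 2 replicate 2) to 5.66 (day 7 replicate 1). The values are linear, so log2 was taken. Without 57 AFFX controls, 31042 probe sets were tested. In the platform annotation 20826 probe sets had 1 gene symbol, 436 several and 9780 none. The 10 listed symbols were found in the RefSeq gene table of GRCr8.

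Two-sided tests came from limma 3.58.1 under R 4.3.3. The 9 arrays shared a single fit of the 3 day means without covariates, which left 6 residual degrees of freedom (5.69 prior), with Benjamini-Hochberg adjustment over all probe sets in each of 4 comparisons. Other genes are represented by their brightest probe set. Errors after ± are SEs unless marked SD. Replicates are litters, and 3 arrays per day limit precision. The procedure was tested on simulated data. All listed genes are named; from each pathway list up to 4 genes with the largest changes were named per comparison, beside the exceptions stated. The genes and lists were chosen with earlier results of these data known. Alternatives were a litter block, quantile normalization, median centring, a filter on dim probe sets, an intensity trend with robust eBayes, fits of the compared days alone and omission of each array.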

Additional observations from a re-analysis of the deposited data

How the results depend on the processing

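Over the 9 genes, 4 comparisons and all alternatives, 506 of 531 values kept their direction and their side of the threshold, 15 lost the call, 7 gained it and 3 changed sign. The sign changes were of differences near zero, with Myd88 between days 2 and 7 ranging from -0.0689 to 0.0517 and Ly86 between days 2 and 21 from -0.0211 to 0.16 when single arrays were left out. With each array centred on its median, 5 of the 9 genes fell between days 2 and 7 in place of 3, Ly86 and Ly96 being added. Every alternative kept the calls of Cd14, Tlr2 and Tlr7 to day 7 and from it, and of Tlr4 at day 21 against both earlier days. With the litter number as a replicate block, 6 in place of 7 genes rose between days 7 and 21 and no other call among the 9 changed. Correlations of deviations between same-numbered arrays of different days ran from -0.24 to 0.41, against -0.29 to 0.24 for other numbers. Same-numbered arrays of days 2 and 7 had 0.41, 0.08 and 0.22, while those with day 21 ran from -0.24 to 0.05. The ranges overlap, so whether equal numbers mark pairs was not settled. The fit with another probe set of a gene could not be made, since each had 1.

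Over all probe sets, 1707 rose and 1068 fell between days 2 and 7 (61.5% of calls higher, 53.5% after quantile normalization and 41.5% after centring, which left 902 rises). Leaving out single arrays gave 850 to 1814 rises and 673 to 1155 falls, the fewest of both without day 2 replicate 2. Between days 7 and 21, 36.6% of calls were higher, with 48.5% and 48% after quantile normalization and centring, and centring moved the median of all probe sets from 0.02 to 0.13. For day 7 against the mean of the other days 66.4% were, with 55.7% and 53.2%. Between days 2 and 21, 2118 rose (36% of calls), with 3397 after quantile normalization (47.3%) and 1186 to 2565 without single arrays. The causes were not tested.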
